A study of Rattus norvegicus with 6 samples.

Results

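Fatty acid oxidation and the genes known as targets of the peroxisome proliferator-activated receptors (PPARs) were followed here through 8 genes: Cpt1a, Cpt2, Acadm, Hadha, Ehhadh, Pdk4, Angptl4 and Plin2. They were chosen by name, as the non-control probes whose RefSeq accession belongs to these genes, which gave 11 of the array's 61537 probes and 8 of the 15645 genes that could be named on it. The samples were renal cortex from 6 male Sprague-Dawley (Crl:CD(SD)) rats, bought at 5 weeks of age and kept under a 12 h light and dark cycle on a basal diet. The DNPT group was 3 rats that received the nitroso compound N,N'-dinitrosopentamethylenetetramine, at a daily dose of 200 mg/kg, for 4 weeks. The vehicle group was 3 rats given corn oil as the vehicle control over the same 4 weeks. Each rat's RNA was hybridised to its own 1-colour Agilent array. The cortex was profiled as bulk tissue, in which fewer cells of a type and less RNA per cell cannot be told apart.

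Fatty acids reach the mitochondrial matrix as carnitine esters. Cpt1a, on the outer membrane, makes the ester and is the regulated step, and Cpt2, on the inner membrane, returns the acyl group to coenzyme A. Inside, Acadm starts each round of beta oxidation on medium-chain substrates and Hadha, the alpha subunit of the mitochondrial trifunctional protein, carries long chains through the following steps. Ehhadh does comparable hydratase and dehydrogenase work in the peroxisome. Pdk4 phosphorylates and shuts down pyruvate dehydrogenase, which spares glucose carbon when fat is burned, Angptl4 is a secreted inhibitor of lipoprotein lipase, and Plin2 coats the lipid droplets in which cells store triglyceride. PPARs bind fatty acids and activate genes of this kind, and the proximal tubule, which makes up most of the cortex, draws much of its energy from fatty acid oxidation.

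In DNPT rats the droplet protein Plin2 was 1.30-fold lower than in vehicle rats, and it was the only 1 of the 8 genes in which the groups did not overlap, where 20.2% of all features did not (11.9% higher and 8.32% lower in DNPT rats). Among the enzymes of oxidation, Cpt2, Acadm and Cpt1a averaged 1.15-fold, 1.12-fold and 1.24-fold higher and Hadha and Ehhadh 1.09-fold and 1.05-fold lower, all with overlapping groups. Pdk4 and Angptl4 averaged 1.58-fold and 1.29-fold lower, but DNPT replicate 2 lay above the vehicle mean in both. Limma with Benjamini-Hochberg adjustment over all 34915 features tested called 0 of the 8 genes at an adjusted p under 0.05, as it called 0% of all features although 12.1% had an unadjusted p under 0.05, and the adjusted p of the 8 genes ran from 0.409 (Plin2) to 0.928 (Ehhadh). At an unadjusted p under 0.05, 0 of the 8 were higher and 1 was lower, where 5.95% of all features were higher and 6.16% were lower. Of the 8 genes, 3 had a positive and 5 a negative mean difference, with a median of -0.09 on the log2 scale against 0.01 over all features. Signals below are on a log2 scale on which 0 is the 75th percentile of the rat's array, so that values of different genes are not to be set against each other, differences are DNPT minus vehicle with the standard error (SE) of the limma fit, and means are given ± SD over n = 3 rats. The 3 arrays per group limit the precision: an exact permutation test of a single gene cannot go below 0.1 with 3 against 3.

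**Figure D1:**
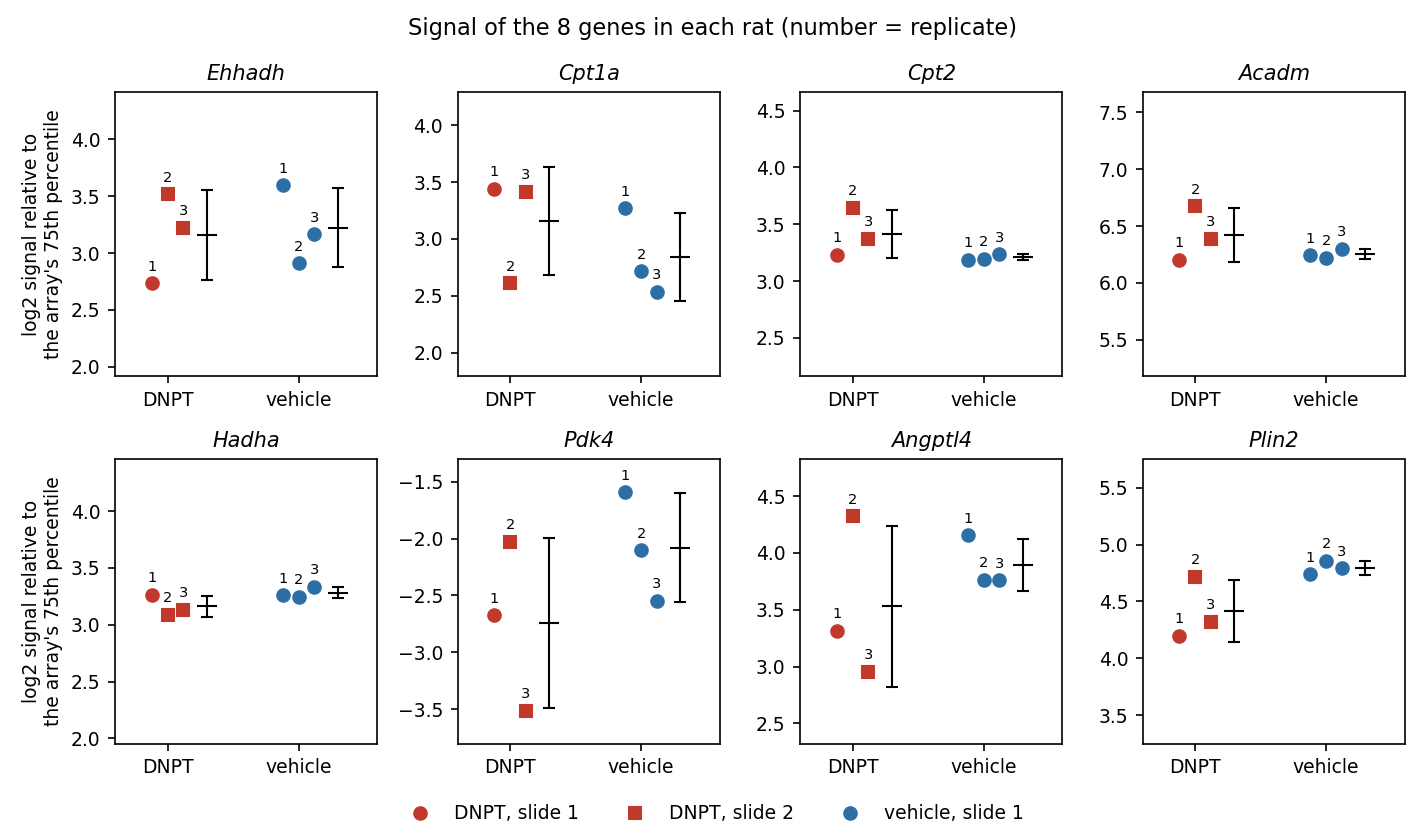
Signal of each of the 8 genes in each rat, as log2 relative to the 75th percentile of the array (vertical axis, the same span in every panel), in DNPT rats (red) and vehicle rats (blue); numbers are replicates, circles slide 1, squares slide 2, and the bar beside each group is its mean ± SD. Plin2 is the only panel in which all 3 DNPT points lie below all 3 vehicle points, and DNPT replicate 2 stands apart from the other DNPT rats for Cpt1a and Angptl4.

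On the 6 arrays 68.4% to 73.4% of probes exceeded background clearly by the scanner's own call, and the representative probe of each of the 8 genes was well above background on all 6 arrays and saturated on 0. Vehicle rats and DNPT replicate 1 were on slide 1 with scan day 1, and DNPT replicates 2 and 3 on slide 2 with scan day 2. Slide 2 holds no vehicle rat, so for these 2 rats slide and treatment cannot be told apart, and the only comparison within a slide sets DNPT replicate 1 against the 3 vehicle rats. The label of cortex was checked by marker genes: all 15 proximal tubule markers were tested, with a summed level of 3249 to 3733 times the array's 75th percentile in DNPT rats and 2934 to 3136 in vehicle rats, without overlap. Of the 15, 4 were higher at an unadjusted p under 0.05, among them the glucose transporter Slc5a2 at 0.42 (adjusted p = 0.354), and 0 were lower. Sums for the thick ascending limb (238 to 327 in DNPT rats, 278 to 340 in vehicle rats), distal tubule and collecting duct (234 to 262 in DNPT rats, 232 to 257 in vehicle rats) and podocytes (26.6 to 35.7 and 27.6 to 30.9) overlapped, whereas those of leukocytes (3.28 to 3.96 and 4.08 to 4.45) and striated muscle (0.491 to 0.857 and 0.866 to 0.993) were lower in DNPT rats. Of the 7 leukocyte markers 3 were lower at an unadjusted p under 0.05, namely Cd3e at -1.75, Cd3d at -0.35 and Csf1r at -0.24. Against the direction of the sum, 1 was higher, Cd79b at 1.14, with no value in DNPT replicate 2. In the distal tubule and collecting duct list 5 of 8 markers had positive and 3 negative differences (median difference 0.37). At an unadjusted p under 0.05, 4 were higher and 0 lower, where 5.95% of all features were higher and 6.16% lower. The 4 were Calb1 at 0.64, Scnn1g at 0.55, Atp6v1g3 at 0.49 and Trpv5 at 0.35, the last with overlapping groups. Past no threshold were Slc4a1 at 0.38, Aqp2 at -0.34, Slc12a3 at -0.11 and Aqp3 at -0.0004. Adipocyte markers, which bear on Plin2, Angptl4 and Pdk4 because fat cells express all of these, summed to 1.09 to 1.68 in DNPT rats and 1.14 to 1.85 in vehicle rats over the 6 of 8 tested. Lep did not pass the filter on dim probes and Plin1 had no probe that could be named. Liver transcripts (9 of 9 markers tested) summed to 3.77 and 3.89 in DNPT replicates 1 and 2, to 27.9 in DNPT replicate 3 and to 3.89 to 5.57 in vehicle rats. The part of these markers in the differences below was not tested.

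The entry of fatty acids into mitochondria was read from Cpt1a and Cpt2. The Cpt1a signal was 3.44, 2.61 and 3.42 in DNPT replicates 1, 2 and 3, against 3.27, 2.71 and 2.54 in vehicle replicates 1, 2 and 3. Both groups thus held high and low rats, and the lowest DNPT rat, replicate 2, lay below vehicle replicates 1 and 2. The mean difference was 0.32 (SE 0.30, adjusted p = 0.660), with a 95% interval from 1.34-fold lower to 2.08-fold higher. Cpt2 had signals of 3.23, 3.64 and 3.37 in DNPT rats and 3.19, 3.20 and 3.24 in vehicle rats. The vehicle rats lay within 0.05 of each other and the DNPT rats spread over 0.41, with replicate 1 inside the vehicle range. The Cpt2 difference was 0.21 (SE 0.12, adjusted p = 0.501), and its interval ran from 1.07-fold lower to 1.43-fold higher. With DNPT replicate 1 left out the value was 0.30 (adjusted p = 0.230) and passed an unadjusted p of 0.05, as did 8.25% of all features on the higher and 12.6% on the lower side. Within slide 1 it was 0.02.

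In the mitochondrial matrix, Acadm gave 6.20, 6.68 and 6.39 in DNPT rats and 6.24, 6.22 and 6.30 in vehicle rats. DNPT replicates 2 and 3 lay above and replicate 1 below all vehicle rats. The difference was 0.17 (SE 0.14, adjusted p = 0.608), and -0.05 within slide 1. Acadm followed the same order as Cpt2 over the DNPT rats, with replicate 2 highest and replicate 1 lowest. Hadha had the narrowest interval of the 8 genes, with 3.26, 3.09 and 3.13 in DNPT rats and 3.26, 3.24 and 3.34 in vehicle rats. Its difference was -0.12 (SE 0.09, adjusted p = 0.566), and the 95% interval allowed at most a 1.26-fold lower or a 1.07-fold higher level in DNPT rats. The other probes of Hadha, also well above background on all 6 arrays, had differences of -0.19 (A_44_P414469) and -0.04 (A_64_P055984), and in each the groups overlapped.

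In the peroxisome, Ehhadh had signals of 2.74, 3.52 and 3.22 in DNPT rats and 3.60, 2.91 and 3.16 in vehicle rats. Each group contained both a high and a low rat, and the ranges nearly coincided. The mean difference was -0.07 (SE 0.26, adjusted p = 0.928), with an interval from -0.71 to 0.58. Its sign depended on single rats: it was 0.15 without DNPT replicate 1 and 0.12 without vehicle replicate 1.

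**Figure D2:**
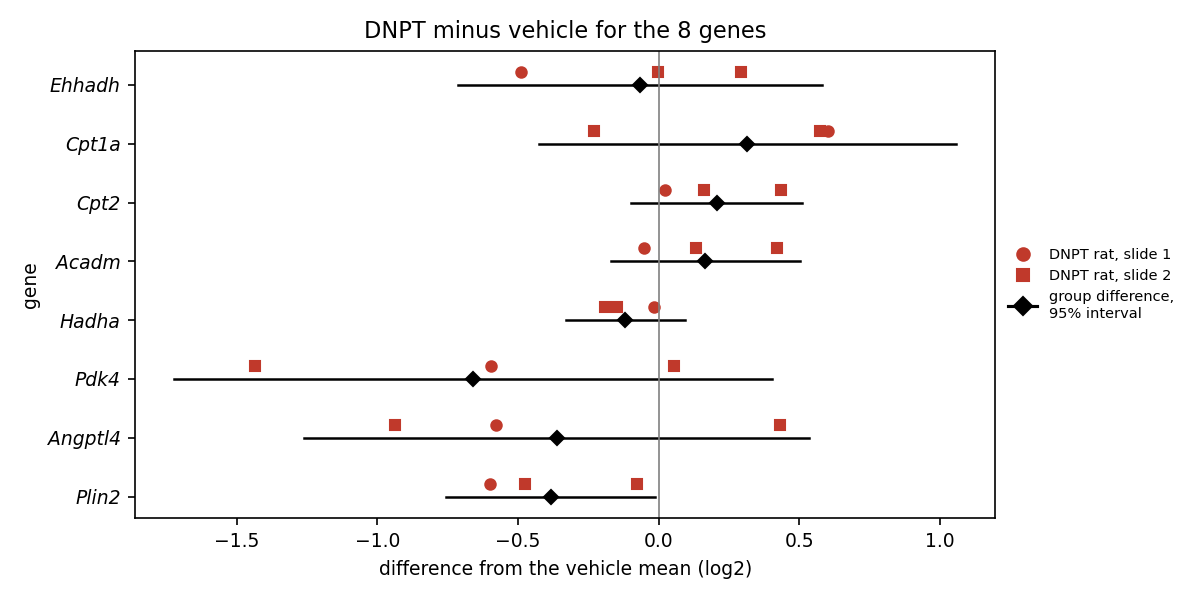
Difference from the vehicle mean on the log2 scale for each of the 8 genes, with the group difference (diamond) and its 95% interval from limma and the 3 DNPT rats above it (circle for the rat on slide 1, squares for those on slide 2). The interval of Hadha is the narrowest (-0.33 to 0.09) and that of Pdk4 the widest (-1.72 to 0.40), and only that of Plin2 (-0.76 to -0.01) lies below 0.

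The sequences just upstream of Pdk4, Angptl4 and Plin2, the 3 genes with the lowest mean differences, are given to show what stands at their start sites. They are the 160 bases before the RefSeq gene start in build GRCr8, all on the minus strand of the chromosome, written 5′ to 3′ with the base next to the start last. Capitals mark a CCAAT box in reverse orientation in Pdk4, 2 overlapping TATAAA matches on opposite strands in Angptl4 and the palindromic E box CACGTG in Plin2, which has 2 windows, of which the one with the E box is shown.
Pdk4, chr4:34568330-34568489: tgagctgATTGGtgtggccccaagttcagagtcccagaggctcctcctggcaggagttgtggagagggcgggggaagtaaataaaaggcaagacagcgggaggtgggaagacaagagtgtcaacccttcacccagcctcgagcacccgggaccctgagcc
Angptl4, chr7:15258682-15258841: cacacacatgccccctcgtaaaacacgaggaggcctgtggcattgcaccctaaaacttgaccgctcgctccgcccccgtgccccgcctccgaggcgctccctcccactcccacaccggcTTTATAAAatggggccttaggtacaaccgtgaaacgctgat
Plin2, chr5:106229019-106229178: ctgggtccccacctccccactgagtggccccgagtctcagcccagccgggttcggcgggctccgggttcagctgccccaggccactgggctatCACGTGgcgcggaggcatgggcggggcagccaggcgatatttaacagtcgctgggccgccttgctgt
The E box of Plin2 begins 67 bases before the start, and CACGTG was found in 1 of the 9 windows of the 8 genes and in 6.42% of all 33469 promoter windows of 300 bases. TATAAA occurred in 1 of the 9 windows (14.2% of all windows) and CCAAT in 4 (37.5%), searched on both strands. The PPAR response element, searched as AGGTCANAGGTCA, was in 0 of the 9 windows and 0.0538% of all windows, its core AGGTCA in 0 and 16.2%, and the D box TTATGNAA, the motif of the Dbp family, in 0 and 3.66%. The element contains its core at both ends, so each match of the element is also a match of the core. These windows span 250 bases before to 50 after a start, and a missing match says only that the letters are not there.

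Pdk4, the pyruvate dehydrogenase kinase, had the largest mean difference of the 8 genes. Its signal was -2.67, -2.03 and -3.52 in DNPT rats and -1.59, -2.10 and -2.55 in vehicle rats. DNPT replicates 1 and 3 lay below all vehicle rats, and replicate 2 lay between vehicle replicates 1 and 2. The difference was -0.66 (SE 0.43, adjusted p = 0.531), with a 95% interval from 3.30-fold lower to 1.32-fold higher. The value moved with single rats, to -1.02 without DNPT replicate 2 (adjusted p = 0.574), -0.27 without DNPT replicate 3 and -0.41 without vehicle replicate 1. Across the 6 rats the named genes with the most similar profile, out of 12676 with a value in every rat, were Casp8ap2 (Pearson r = 0.985), Gdf2 (0.982) and Osbp2 (0.973), and each placed the rats in the same order as Pdk4 (Spearman rho = 1). They were picked as the closest of many genes over 6 samples, and their own differences were -0.05, -0.26 and -0.16.

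Angptl4, the lipoprotein lipase inhibitor, gave 3.31, 4.32 and 2.96 in DNPT rats and 4.15, 3.77 and 3.76 in vehicle rats. DNPT replicates 1 and 3 were below every vehicle rat and replicate 2 was above every vehicle rat, so the DNPT group enclosed the vehicle group. The difference was -0.36 (SE 0.36, adjusted p = 0.679), and the interval reached from 2.39-fold lower to 1.45-fold higher. A further probe of Angptl4, A_44_P391057, put the rats at 0.58, 1.34 and -0.03 in the DNPT group and 1.53, 1.23 and 1.07 in the vehicle group, a difference of -0.65. On that probe DNPT replicate 2 was again the highest DNPT rat, but it lay between vehicle replicates 1 and 2. Without DNPT replicate 2 the difference on the brighter probe was -0.76 (adjusted p = 0.485), and without DNPT replicate 3 it was -0.07. It was -0.23 without vehicle replicate 1.

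**Figure D3:**
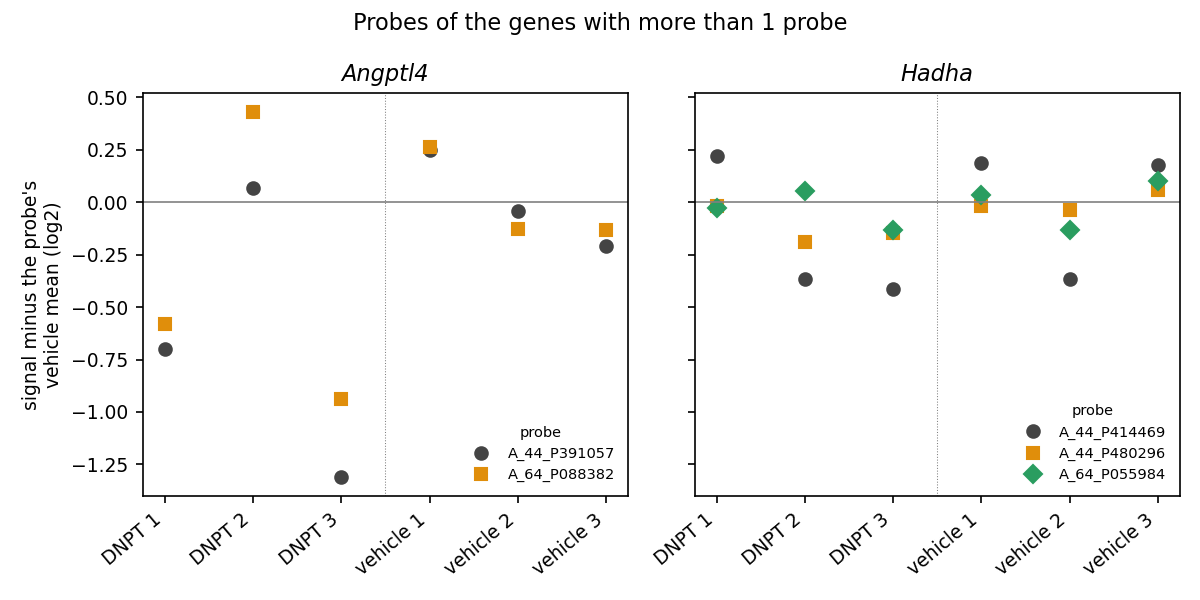
Signal of each probe minus that probe's vehicle mean (log2) in the 6 rats, for Angptl4 (2 probes) and Hadha (3 probes). Both Angptl4 probes put DNPT replicates 1 and 3 below all vehicle rats, while the groups overlap on every Hadha probe.

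Plin2, the lipid droplet coat protein, had signals of 4.20, 4.72 and 4.32 in DNPT rats and 4.74, 4.86 and 4.79 in vehicle rats. All DNPT rats lay below all vehicle rats, replicate 2 by 0.02 only, as in 8.32% of all features. The means were 4.41 ± 0.27 in DNPT rats and 4.80 ± 0.06 in vehicle rats, a difference of -0.38 (SE 0.15, adjusted p = 0.409). The unadjusted limma p was 0.0453 and the exact two-sided permutation p was 0.1, the smallest that 3 against 3 can give. The 95% interval ran from 1.69-fold to 1.01-fold lower. Within slide 1 the difference of DNPT replicate 1 from the vehicle rats was -0.60 (adjusted p = 0.435). It was -0.54 without DNPT replicate 2 (adjusted p = 0.390). The unadjusted p was above 0.05, from 0.0787 to 0.118, when any other rat was left out, with differences of -0.41 to -0.28, and also with median scaling (0.0523), with no filter on dim probes (0.0525) and with array weights (0.0846). Plin2 has a single probe on the array.

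DNPT replicate 2 stood at an end of its group in all 8 genes. It was the highest of the DNPT rats in 6 of the 8 genes and the lowest in the other 2, Cpt1a and Hadha, whereas over all features it was the highest in 31.8% and the lowest in 29.0%. Relative to the vehicle mean it was at 0.44 for Cpt2, 0.42 for Acadm, 0.43 for Angptl4 and 0.29 for Ehhadh, where DNPT replicate 1 was at 0.02, -0.05, -0.58 and -0.49. DNPT replicate 3 was at 0.16, 0.13, -0.94 and -0.0006 for these genes. For Pdk4, Plin2, Hadha and Cpt1a, DNPT replicate 2 was at 0.05, -0.08, -0.19 and -0.23. There DNPT replicate 1 was at -0.59, -0.60, -0.02 and 0.60, and DNPT replicate 3 at -1.44, -0.48, -0.15 and 0.58. The SD was larger among DNPT than among vehicle rats in all 8 genes, and in 61.3% of all features. It was 0.24 in DNPT rats against 0.04 in vehicle rats for Acadm, 0.21 against 0.03 for Cpt2 and 0.71 against 0.23 for Angptl4. The vehicle rats were all on slide 1 and the DNPT rats on both slides, so a difference between slides can enter only the DNPT SD. With DNPT replicate 2 left out, 3 of the 8 genes, Pdk4, Angptl4 and Plin2, were lower at an unadjusted p under 0.05, where 4.95% of all features were lower and 3.75% higher, and 0 of the 8 were higher. The groups then did not overlap in 4 of the 8 genes, against 28.5% of all features. DNPT rats were lower in Pdk4, Angptl4 and Plin2 and higher in Cpt1a. DNPT replicate 2 was singled out from these same values. It was the highest DNPT rat for Pdk4, Angptl4 and Plin2 and the lowest for Cpt1a. Leaving it out could therefore only lower the DNPT means of those 3 genes and raise that of Cpt1a, so these counts follow in part from the choice of rat. On slide 1 alone, DNPT replicate 1 lay outside the range of the vehicle rats in 6 of the 8 genes, all but Cpt2 and Hadha, against 54.7% of all features. Vehicle replicate 1 held the highest vehicle value in 4 of the 8 genes, Ehhadh, Cpt1a, Pdk4 and Angptl4, and the lowest in 2, Cpt2 and Plin2, where over all features it was the highest in 28.9% and the lowest in 36.2%. The adipocyte marker Cidec, a droplet protein and itself a known PPAR target, was at -3.81, -0.99 and -2.12 in DNPT rats and -0.98, -2.91 and -1.31 in vehicle rats, highest in DNPT replicate 2 and vehicle replicate 1 within their groups. The adipocyte sums, which include Cidec and so are not separate from it, were highest in these 2 rats, at 1.68 and 1.85. Plin2 was highest in DNPT replicate 2 but lowest in vehicle replicate 1. Whether fat in the sample moves the genes was not tested.

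**Figure D4:**
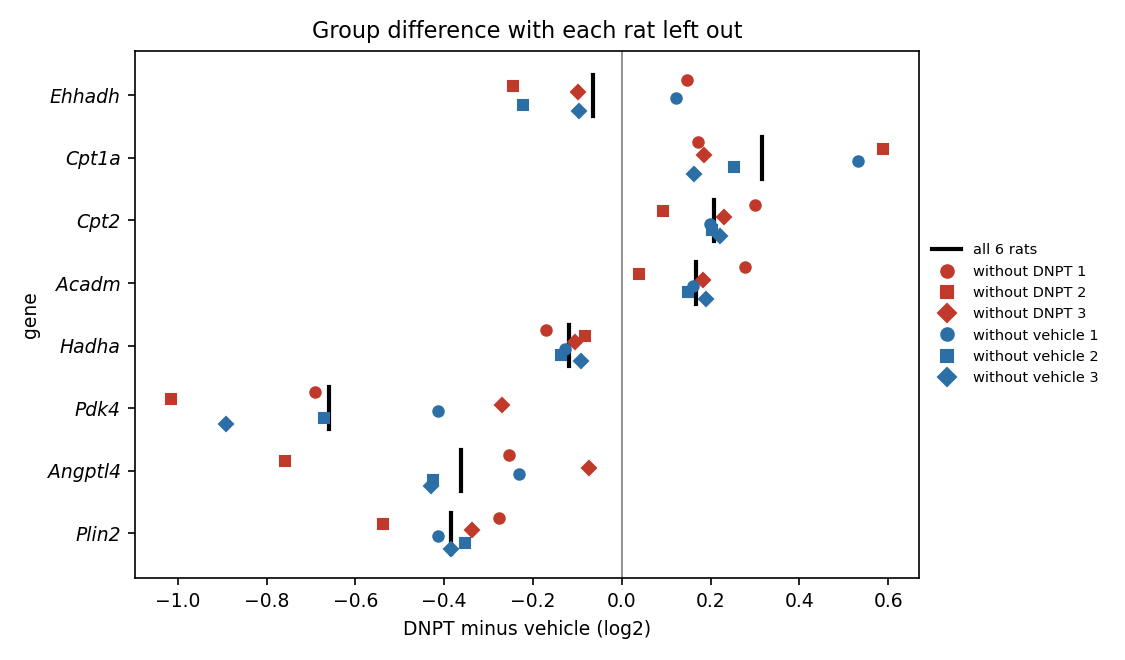
Group difference (DNPT minus vehicle, log2) for each of the 8 genes with all 6 rats (black bar) and with each rat left out (red for a DNPT rat, blue for a vehicle rat). Cpt2, Acadm and Cpt1a stay above 0 and Hadha, Pdk4, Angptl4 and Plin2 below 0 in all 6 settings, and only Ehhadh crosses 0.

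The wider pathway was described through 10 lists of related genes, which share some members (9 of the other PPAR targets also stand in another list). Among the other mitochondrial oxidation genes, 19 of 21 tested had positive differences (median 0.14), and 1 was higher and 0 lower at an unadjusted p under 0.05. That gene was Etfb, a subunit of the electron transfer flavoprotein that takes electrons from Acadm and its relatives. It had signals of 6.33, 6.42 and 6.46 in DNPT rats and 6.04, 5.91 and 5.99 in vehicle rats, a difference of 0.42 (SE 0.08, adjusted p = 0.294). Among peroxisomal genes 15 of 19 were positive (median 0.16), with 3 higher and 0 lower. The 3 were the thiolases Acaa1b (0.40, SE 0.10) and Acaa1a (0.30, SE 0.11), near-identical copies whose probes may read both, and the acyl-CoA oxidase Acox2 (0.41, SE 0.15), with adjusted p of 0.353 to 0.401. Of all features, 51.9% had positive differences. The median of these lists was 0.00 and 0.04 in DNPT replicate 1, 0.25 and 0.29 in DNPT replicate 2, and 0.18 and 0.09 in DNPT replicate 3. The DNPT rat of slide 1 thus lay near the vehicle mean. The proximal tubule sums given above, which also separated the groups, were highest in DNPT replicate 2 (3733), and their part in these lists was not tested.

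Other genes known as PPAR targets had 16 of 22 positive differences (median 0.13), with 0 higher and 1 lower at the unadjusted threshold. The lower gene was Ucp2, an uncoupling protein of the inner mitochondrial membrane, at -0.46 (SE 0.10, adjusted p = 0.320), with no overlap between the groups. In fatty acid uptake and activation, Slc27a2, a very long-chain acyl-CoA synthetase and transporter, was the only gene past the threshold in either direction (0.46, SE 0.12, adjusted p = 0.354), among 18 tested. Around Plin2, 9 of 15 lipid droplet and lipolysis genes had positive and 6 negative differences (median 0.03). At the unadjusted threshold 5 were higher and 0 lower, where 5.95% of all features were higher and 6.16% lower. Without overlap between the groups, 5 were higher and 2 lower, against 11.9% and 8.32% of all features. The 2 lower ones, Lipe (-0.30) and Mgll (-0.27), did not pass the threshold. The 5 higher genes included Fitm1, which promotes droplet formation, at 2.08, 2.41 and 1.78 in DNPT rats and 1.27, 1.10 and 1.54 in vehicle rats (0.79, SE 0.20, adjusted p = 0.353). G0s2, an inhibitor of triglyceride lipase, was at 0.32 (SE 0.08, adjusted p = 0.353) and Pnpla2, the triglyceride lipase that G0s2 inhibits, at 0.36 (SE 0.10, adjusted p = 0.361). Plin5, the only other perilipin tested, was at -0.01.

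Around Pdk4, the regulatory subunit Pdpr of pyruvate dehydrogenase phosphatase was the only gene of 12 in the pyruvate dehydrogenase list past the unadjusted threshold (0.26, SE 0.09, adjusted p = 0.395), and the other kinases Pdk1, Pdk2 and Pdk3 had differences of 0.04, 0.26 and -0.05. Around Angptl4, of 10 genes of the lipoprotein lipase system, 1 was higher and 1 lower: endothelial lipase, Lipg (0.61, SE 0.19), and the VLDL receptor, Vldlr (-0.30, SE 0.09), both with an adjusted p of 0.384. Lipoprotein lipase itself, Lpl, was at -0.19 (SE 0.15). Ketone body enzymes had 0 of 6 genes past the threshold, with Oxct1 at 0.02 and Acat1 at 0.07 on their brightest probes. Over all tested probes Oxct1 ran from -0.29 to 0.02 (4 probes) and Acat1 from -0.07 to 0.07 (2 probes). Fatty acid synthesis had 1 of 13 genes past the threshold, the elongase Elovl6 (0.30, SE 0.11, adjusted p = 0.402). Of the receptors, Ppara was at 0.85, 1.02 and 0.61 in DNPT rats and 0.11, -0.30 and -0.04 in vehicle rats (0.91, SE 0.16, adjusted p = 0.266), and Ppard at -3.06, -2.60 and -2.94 in DNPT rats and -1.13, -0.87 and -1.33 in vehicle rats (-1.75, SE 0.17, adjusted p = 0.149). The adjusted p of Ppard was 0.0370 without DNPT replicate 1, a setting that called 620 features and left only DNPT rats of slide 2, and 0.170 to 0.475 without any other rat. The 2 probes of Ppara and the 3 of Ppard each had a difference of the same sign. Of the 11 receptor and cofactor genes tested these were the only ones past the unadjusted threshold, and Pparg was at 0.11.

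**Figure D5:**
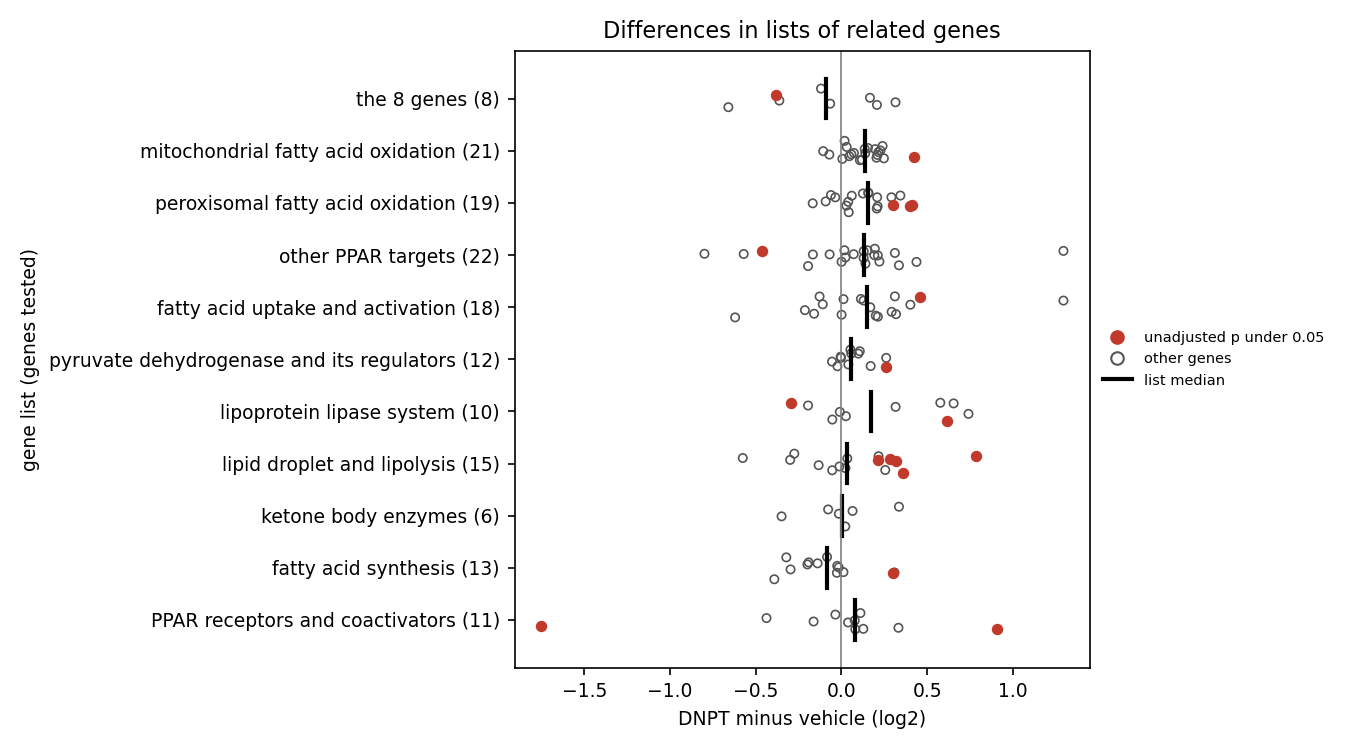
Difference between DNPT and vehicle rats (log2, horizontal axis) for each gene tested in the 8 genes and in 10 lists of related genes, with the number tested in parentheses; filled red points had an unadjusted limma p under 0.05 and black bars are list medians. The medians of the oxidation lists lie at 0.14 and 0.16, that of the 8 genes at -0.09, and the widest pair of points is Ppard at -1.75 and Ppara at 0.91 in the bottom list.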

How the data were processed

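Scanner files were read by the authors with Agilent Feature Extraction 10.7, per the submitters' processing notes, and hold a background-corrected intensity per spot, per the file headers. The deposited value table holds a ratio: every intensity divided by a constant of its array near the 75th percentile (all probes fit to within 0.5%, column medians 0.112 to 0.116). No label or header says how it was made. Control spots and 113 outlier values were left out. Log2 intensity minus each array's 75th percentile was tested for probes well above background on at least 3 of 6 arrays with at least 2 values per group. Accessions were matched without versions to RefSeq genes of GRCr8 (28206 of 61537 probes), and the brightest tested probe stood for a gene, leaving 34915 features. The groups' difference was fitted with limma 3.58.1 under R 4.3.3 (lmFit, then eBayes; no covariate), tested two-sided and adjusted by Benjamini-Hochberg. All list members past an unadjusted p under 0.05, up to 3 per direction, or else the 2 brightest, were to be named, and the 3 genes most like the gene with the largest difference. Pdk1, Pdk2, Pdk3, Lpl, Plin5, Lipe, Mgll, Pparg and the named markers were picked after their values were seen. The 8 genes and the lists were chosen with earlier results of these data known. The fit was tested on simulated data. Alternatives were other normalizations, filters, probe rules and variance models, a block for slide or for replicate number, only slide 1, and each rat left out. Plots used Python 3.11.15 and matplotlib 3.10.9.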

Additional observations from a re-analysis of the deposited data

How the results depend on the processing

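The 8 genes passed an adjusted p of 0.05 in 0 of 18 alternatives. Cpt1a, Cpt2, Hadha, Pdk4, Angptl4 and Plin2 kept their sign in all 18, Plin2 with -0.60 to -0.28 and an unadjusted p under 0.05 in 10. The 18 are not separate checks of the sign. The filters, the variance model with an intensity trend and the replicate block left the difference itself unchanged (Plin2 at -0.38 in each). A block for slide and only slide 1 gave the same difference (Plin2 at -0.60 in both). Ehhadh turned positive with array weights (0.058) and ranged from -0.24 to 0.15 with each rat left out (0.15 without DNPT replicate 1, 0.12 without vehicle replicate 1), and Acadm was at -0.053 with a block for slide and with only slide 1. The number of all features called was 5 with normexp and quantile normalization, 1 with a block for slide, 1 with only slide 1, and 0 to 620 with a rat left out (620 without DNPT replicate 1, 3 without vehicle replicate 2). Of the 8 genes, 0 passed an unadjusted p of 0.05 with median scaling and with no filter on dim probes, and 0 to 3 with a rat left out. With array weights the gene that passed was Cpt2 instead of Plin2. The genes whose groups did not overlap numbered 2 with quantile normalization and with median scaling (18.6% and 21.0% of all features), 6 with only slide 1, where a single DNPT rat remained (54.7%), and 1 to 4 with a rat left out (27.7% to 42.8%; 4 without DNPT replicate 1, 42.8%, and 4 without DNPT replicate 2, 28.5%). The replicate numbers are shared labels only (correlations of deviations -0.18, -0.06 and -0.18), and with the replicate block 1 of the 8 genes passed the unadjusted threshold, Plin2 at -0.38, and 0 features were called. Features at an unadjusted p under 0.05 numbered 4227, and 8737 with no filter, 2393 with a block for slide and 7268 without DNPT replicate 1. Of 35 other named genes, 12 of 627 values reversed, in 4 genes. Oxct1 was at -0.079 (quantile), -0.13 (normexp), -0.10 (mean over probes), -0.12 (slide block and only slide 1) and -0.040 to 0.093 (a rat left out). Acat1 was at -0.0095 (quantile) and -0.0012 (mean over probes), the podocyte marker Podxl at -0.0067 (slide block and only slide 1) and Cidec at -1.23 to 0.18 (a rat left out). Slide and treatment cannot be told apart for 2 of the 3 DNPT rats, and the cause of these shifts was not tested.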
